A study of Mus musculus with 45 samples.

Results

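The genes described here are 33 genes of pancreatic acinar cells, chosen by name from their known roles: 14 proteases, 6 enzymes and cofactors of lipid digestion, 2 further enzymes (Amy1 and Rnase1), 6 zymogen granule or other secreted proteins, 4 transcription factors that regulate acinar genes, and Gatm, an enzyme of creatine synthesis. Each of the 33 had a row among the 22904 genes of the deposited matrices, and each passed the filter on low counts, which kept 20306 genes. They were measured in bulk polyadenylated RNA of pancreatic islets from 45 libraries, with 57.2 to 110 M estimated counts each. The islets came from NZO/HlLtJ, CAST/EiJ and C57BL/6J mice, 3 inbred strains described as wild type, in males and females. The mice were fed either a diet rich in fat and sugar, with 44% fat, or a fiber-matched control diet with 10% fat. Feeding began at an age of 6 weeks and the islets were collected at 16 weeks. NZO/HlLtJ is an obese, diabetes-prone strain, CAST/EiJ is derived from wild mice, and C57BL/6J is a common laboratory strain. These factors gave 12 groups. NZO/HlLtJ males on 44% fat, NZO/HlLtJ males on 10% fat and CAST/EiJ males on 10% fat held 3 libraries each, and the other 9 groups held 4 each. Whether every library stands for 1 mouse is not stated in the labels, and the p-values below cover the spread among libraries, part of which may be technical.

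Acinar cells form the exocrine pancreas. They make digestive enzymes, most of them as inactive zymogens, store them in granules and release them into the ducts, whereas islets are the endocrine part of the organ. Isolated islets commonly carry some exocrine tissue, so acinar transcripts in islet RNA are also a measure of that tissue. Acinar identity is kept by a small group of transcription factors. PTF1A, a bHLH protein, binds enzyme genes as a complex with an E protein and RBPJL. NR5A2 is a nuclear receptor that acts with this complex, and BHLHA15, also called MIST1, organises the secretory apparatus.

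Some libraries carried transcripts of another strain, seen from genes that 1 strain lacks. Markers of C57BL/6J were at 10.5%, 4.41% and 3.65% of the C57BL/6J level in replicates 1, 2 and 4 of the CAST/EiJ females given 44% fat (median of 8 markers). The same libraries held NZO/HlLtJ markers at 4.14%, 2.83% and 1.66% of the NZO/HlLtJ level (14 markers). NZO/HlLtJ male 44% fat replicate 3 held CAST/EiJ markers at 2.01% of the CAST/EiJ level (9 markers) and C57BL/6J markers at 0.982% (2 markers). C57BL/6J female 44% fat replicate 2 held NZO/HlLtJ markers at 2.43% (8 markers). C57BL/6J male 44% fat replicate 2 held CAST/EiJ markers at 0.736% (10 markers) and NZO/HlLtJ markers at 0.513% (8 markers). The libraries carried the hormone genes of islets: the summed level of 8 beta cell genes, the insulin genes among them, was 55150.3 to 187393 CPM.

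Levels are given in CPM, counts per 1 M of a library's counts, scaled with TMM composition factors. Of the 33 genes, Pnlip, which encodes pancreatic triglyceride lipase (chromosome 19, 58670365 to 58681786, plus strand, GRCm38), had the highest median over the 45 libraries, 6005 CPM. The chymotrypsinogen gene Ctrb1 followed at 5718 CPM, the elastase gene Cela2a at 4178 CPM, the bile salt-activated lipase gene Cel at 3944 CPM and Cela1, another elastase gene, at 3713 CPM. The lowest medians, pooled over strains that differed by large factors in Cela3a and Prss1, were those of Cela3a at 0.618 CPM, Ptf1a at 2.03 CPM, Nr5a2 at 3.80 CPM and Prss1 at 4.56 CPM. Levels of different genes are comparable only per length. Per kilobase of annotated exon, Ctrb1 led with a median of 6513 CPM per kb, ahead of the trypsinogen gene Prss2 (2939) and Pnlip (2736). On the same scale the transcription factors were low, with Bhlha15 at 22.1, Rbpjl at 1.44, Ptf1a at 1.35 and Nr5a2 at 0.644 CPM per kb, and so were Prss1 at 5.67, Amy1 at 2.36 and Cela3a at 0.645 CPM per kb. Gatm was at 28.4 CPM per kb. Pnlip made up a median of 12.5% of the counts of the 33 genes, Ctrb1 11.4%, Cela2a 10.9%, Cel 9.70%, Cela1 8.06% and Cpa1 6.84%.

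The 33 genes together took between 0.0593% and 33.2% of a library's counts, with a median of 5.20%. In bulk RNA, fewer cells of a type and less RNA per cell cannot be told apart, and both would move this share. By strain the median was 6.83% in NZO/HlLtJ, 2.75% in CAST/EiJ and 4.67% in C57BL/6J, with the ranges overlapping widely. Within groups the spread was large. The highest CAST/EiJ male library on 44% fat held 153 times the share of the lowest, and the fold between the highest and the lowest library was 59.9 in CAST/EiJ males on 10% fat, 28.3 in CAST/EiJ females on 10% fat and 46.7 in C57BL/6J females on 44% fat. The fold was smallest in the NZO/HlLtJ groups, at 2.13 in males on 44% fat, 1.35 in males on 10% fat, 2.52 in females on 44% fat and 4.55 in females on 10% fat. The pancreatic amylase genes of the Amy2 family are not among the 33. They took another 20.0% of counts in CAST/EiJ female 10% fat replicate 4 and 18.3% in C57BL/6J female 10% fat replicate 4. In NZO/HlLtJ males they took 4.18%, 5.95% and 4.14% on 44% fat, against 3.47%, 2.98% and 3.28% on 10% fat. The 33 took 9.69% to 20.6% there on 44% fat, against 4.78% to 6.46% on 10% fat.

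**Figure D1:**
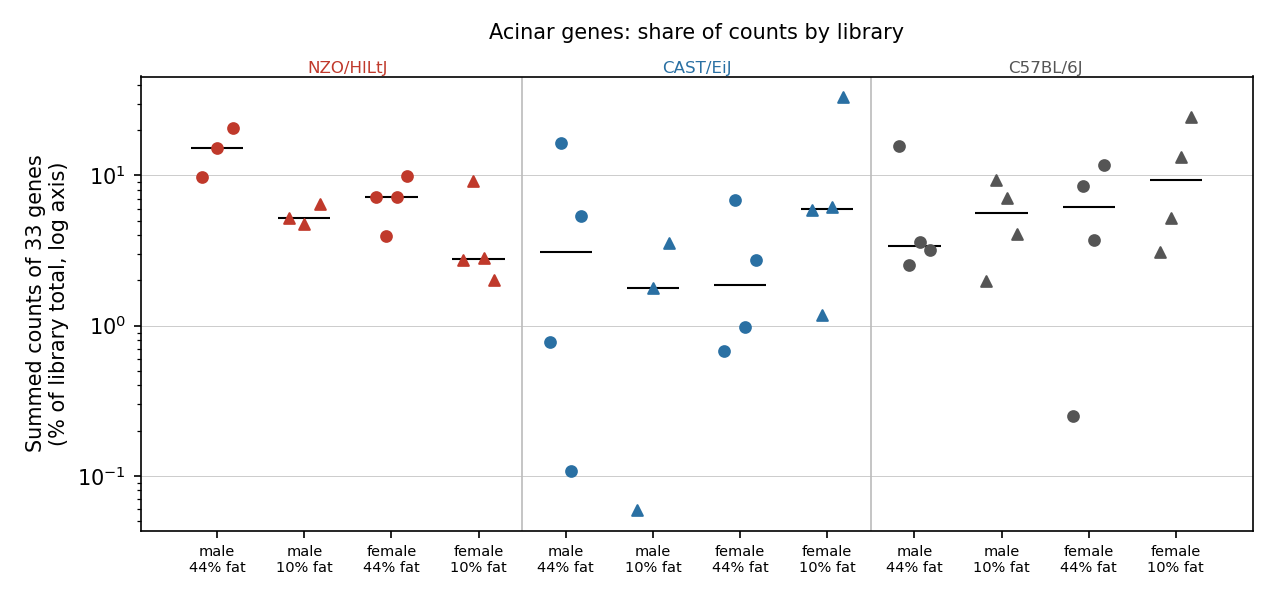
Share of each library's counts taken by the 33 acinar genes (percent, log axis) in the 12 groups. Circles are libraries on 44% fat, triangles libraries on 10% fat, and bars are group medians. The CAST/EiJ and C57BL/6J groups spread over wide ranges, with the extremes of 0.0593% and 33.2% both in CAST/EiJ, whereas NZO/HlLtJ males on 44% fat sit between 9.69% and 20.6%, above NZO/HlLtJ males on 10% fat.

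Single libraries set the level of several groups. In CAST/EiJ females on 10% fat, replicate 4 held 71.6% of the summed shares of its group, and the group mean was 11.6% with it and 4.40% without it. In CAST/EiJ males on 44% fat, replicate 2 held 72.5%, and the mean was 5.69% with it and 2.08% without it. In C57BL/6J males on 44% fat, replicate 1 held 62.6%, and the mean was 6.24% with it and 3.11% without it. Replicate 4 of C57BL/6J females on 10% fat held 53.1% of its group (mean 11.5% with it and 7.21% without it), and replicate 2 of NZO/HlLtJ females on 10% fat held 54.8% (4.21% and 2.53%). The mean of NZO/HlLtJ males on 44% fat was 15.1% with replicate 3, which held 45.3% of the group's sum, and 12.4% without it. In CAST/EiJ female 10% fat replicate 4 the acinar genes were abundant enough that the TMM factor of the library was 0.486, the lowest of all. The number series at the start of the sample codes (76, 80 or 89), which the labels do not explain, overlapped in their shares. The median was 3.54% in series 76 (0.0593% to 15.6%), 4.48% in series 80 (0.107% to 20.6%) and 6.16% in series 89 (2.75% to 33.2%). Series 89 thus held the highest share and none below 2.75%, and a difference between the series was not tested.

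Cpa1, which encodes carboxypeptidase A1, a zymogen made in acinar cells (chromosome 6, 30639218 to 30645363, plus strand), is used below as the measure of how much acinar RNA a library held. In NZO/HlLtJ, Cpa1 was at 6154, 10654 and 12719 CPM in males on 44% fat, against 3681, 3358 and 4659.8 CPM in males on 10% fat, and 4828, 3014, 4766 and 7983 CPM in females on 44% fat, against 1905, 7207, 2023 and 1576 CPM in females on 10% fat. CAST/EiJ libraries had Cpa1 at 408, 12772, 53.9 and 2875 CPM in males on 44% fat, against 28.9, 803 and 1569 CPM in males on 10% fat, and 348, 3671, 533 and 1471 CPM in females on 44% fat, against 3696, 662, 3260.1 and 42956 CPM in females on 10% fat. C57BL/6J libraries had 14263, 1585, 2327 and 2180.0 CPM in males on 44% fat, against 1499.6, 7186, 5455 and 2875 CPM in males on 10% fat, and 163, 6506, 2755 and 8944 CPM in females on 44% fat, against 2069, 3851, 11118 and 26178 CPM in females on 10% fat. The level spanned 1461-fold over the 45 libraries (on CPM + 0.5), and its lowest value was in CAST/EiJ male 10% fat replicate 1. That library was the lowest for 26 of the 33 genes, and CAST/EiJ female 10% fat replicate 4 was the highest for 25.

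The other abundant enzymes followed nearly the same order of libraries. For Pnlip, NZO/HlLtJ libraries gave 10331, 18626 and 20983 CPM in males on 44% fat, against 6089.5, 5859 and 8272 CPM in males on 10% fat, and 8538, 5426, 9014 and 14349 CPM in females on 44% fat, against 3400.2, 13543, 3261 and 2471 CPM in females on 10% fat. In CAST/EiJ, Pnlip was at 879.7, 29751, 120.0 and 6940.1 CPM in males on 44% fat, against 60.5, 2056 and 3660.4 CPM in males on 10% fat, and 776, 7896, 1085 and 2830.2 CPM in females on 44% fat, against 7629.7, 1459, 7251 and 97383 CPM in females on 10% fat. In C57BL/6J it was at 23114, 2834, 3626 and 3517 CPM in males on 44% fat, against 2387, 13059.9, 9515 and 4946 CPM in males on 10% fat, and 226, 11712, 4375 and 14552 CPM in females on 44% fat, against 3646, 6005, 19477 and 46389.5 CPM in females on 10% fat. The same libraries were extreme as for Cpa1, and the groups on 44% and 10% fat overlapped in every strain and sex but NZO/HlLtJ males. Cel, the bile salt-activated lipase (chromosome 2, 28555795 to 28563403, minus strand), was at 6749, 11605 and 13116 CPM in males on 44% fat, against 3944, 3846 and 5063 CPM in males on 10% fat, and 5970.2, 3108, 5909 and 9077 CPM in females on 44% fat, against 2025, 7316, 2004 and 1579 CPM in females on 10% fat in NZO/HlLtJ. CAST/EiJ had Cel at 685, 22887, 98.2 and 5151 CPM in males on 44% fat, against 52.6, 1674 and 2987 CPM in males on 10% fat, and 642, 7619.6, 972 and 2459.9 CPM in females on 44% fat, against 6693, 1275, 5643 and 71983 CPM in females on 10% fat. C57BL/6J had Cel at 17531, 2380.2, 2745 and 2730.4 CPM in males on 44% fat, against 1903, 8925, 6962 and 3610.3 CPM in males on 10% fat, and 193, 8193, 3379 and 11677 CPM in females on 44% fat, against 2766, 4743, 14550.1 and 34807 CPM in females on 10% fat. Both groups of NZO/HlLtJ males were again apart, and the other pairs of groups overlapped.

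Prss2 encodes a trypsinogen (chromosome 6, 41521787 to 41525079, plus strand), the precursor of the protease that activates the other zymogens. Prss2 was at 4206, 8166 and 8915 CPM in males on 44% fat, against 2707, 2634 and 4057 CPM in males on 10% fat, and 3368, 2429, 3721 and 6193 CPM in females on 44% fat, against 1320.0, 4895, 1343 and 1039.8 CPM in females on 10% fat in NZO/HlLtJ. Prss2 in CAST/EiJ was at 249, 8605, 38.0 and 1653 CPM in males on 44% fat, against 20.2, 643 and 1203 CPM in males on 10% fat, and 218, 2710.0, 364 and 1029 CPM in females on 44% fat, against 2249, 441, 2395 and 24874 CPM in females on 10% fat. Prss2 in C57BL/6J was at 9791, 1046, 1463 and 1527 CPM in males on 44% fat, against 957, 4841, 3591 and 1835 CPM in males on 10% fat, and 97.5, 4129, 1604 and 5916 CPM in females on 44% fat, against 1278, 2411, 7342 and 15755 CPM in females on 10% fat. Low and high libraries were those of Cpa1. Cela1, an elastase (chromosome 15, 100674425 to 100687920, minus strand), was at 5677, 9714 and 8665 CPM in males on 44% fat, against 4378, 3591 and 4113 CPM in males on 10% fat, and 6751, 3018, 3713 and 8442 CPM in females on 44% fat, against 2055, 7631, 1903 and 1610.0 CPM in females on 10% fat in NZO/HlLtJ. Cela1 in CAST/EiJ was at 595, 20025, 79.6 and 4767 CPM in males on 44% fat, against 49.0, 1733 and 3065 CPM in males on 10% fat, and 515, 5612, 822 and 2320.1 CPM in females on 44% fat, against 6098, 982, 6256 and 70938 CPM in females on 10% fat. Cela1 in C57BL/6J was at 12169.5, 1778, 2451 and 2113 CPM in males on 44% fat, against 1382, 5854, 5035 and 2974 CPM in males on 10% fat, and 123, 6313, 2697 and 8534 CPM in females on 44% fat, against 2162, 3804, 10747 and 29749 CPM in females on 10% fat. Within a strain its order of libraries again resembled that of Cpa1.

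Zg16 encodes a lectin of the zymogen granule membrane (chromosome 7, 127050156 to 127087328, minus strand). Zg16 was at 1181, 2026 and 2329.9 CPM in males on 44% fat, against 780.3, 686 and 929 CPM in males on 10% fat, and 1183, 565, 810.1 and 1435 CPM in females on 44% fat, against 320.3, 1394, 352 and 262 CPM in females on 10% fat in NZO/HlLtJ. Zg16 in CAST/EiJ was at 128, 4181, 16.3 and 1034 CPM in males on 44% fat, against 10.6, 321 and 636 CPM in males on 10% fat, and 116, 1286, 193 and 545 CPM in females on 44% fat, against 1258, 215, 1155 and 13582 CPM in females on 10% fat. Zg16 in C57BL/6J was at 2269, 362, 398 and 365 CPM in males on 44% fat, against 237, 1094, 852 and 502 CPM in males on 10% fat, and 19.4, 1171, 493 and 1486 CPM in females on 44% fat, against 387, 667, 1837 and 5066 CPM in females on 10% fat. In CAST/EiJ female 10% fat replicate 4 it was over the highest value of every other library. The 25 members other than the 4 transcription factors, Gatm, Ctrc, Cela3a and Prss1 spanned 207-fold (Amy1) to 2631-fold (Try5) over the libraries.

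PTF1A and RBPJL act at a bipartite site, an E-box (CANNTG) next to a TTTCCC box, so the promoters of the members were searched on both strands over the 250 bases before the gene start, in RefSeq promoters of the GRCm38.p6 assembly, which is the sequence of the C57BL/6J reference. The table held 30 promoters of 28 members, and none for Zg16, Try5, Dmbt1, Ctrc and Clps. An E-box of the letters CACCTG was in 17 of the 30 (56.7%), against 17.2% of all 32851 promoters, and CAGCTG was in 4 (13.3%), against 13.0%. TTTCCC was in 8 (26.7%), against 21.9%. CANNTG and TTTCCC not overlapping and spanning at most 30 bases from the first base of one to the last of the other, a pair that includes the E-boxes counted above, were in 5 (16.7%), against 3.47%. The pair was in Cel, Cpa1, Prss1, Ctrb1 and Cela1. A match of letters is not a bound site. The promoters of 4 of these genes are shown with the pair in capitals, because Cpa1, Cel and Cela1 are enzymes whose levels the results turn on and Prss1 is the trypsinogen among the 33 that differed most between groups.
Cpa1 (chr6:30638968-30639217, plus strand): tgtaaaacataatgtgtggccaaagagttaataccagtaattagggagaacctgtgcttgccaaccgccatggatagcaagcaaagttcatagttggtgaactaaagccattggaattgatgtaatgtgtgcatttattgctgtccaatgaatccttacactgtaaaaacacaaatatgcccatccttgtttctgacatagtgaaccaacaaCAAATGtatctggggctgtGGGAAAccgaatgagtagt
Cel (chr2:28563404-28563653, minus strand): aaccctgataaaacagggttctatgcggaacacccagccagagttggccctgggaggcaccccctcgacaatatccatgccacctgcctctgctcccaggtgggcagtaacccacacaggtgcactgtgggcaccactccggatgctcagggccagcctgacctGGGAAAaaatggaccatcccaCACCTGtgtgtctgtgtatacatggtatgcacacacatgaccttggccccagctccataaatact
Cela1 (chr15:100687921-100688170, minus strand): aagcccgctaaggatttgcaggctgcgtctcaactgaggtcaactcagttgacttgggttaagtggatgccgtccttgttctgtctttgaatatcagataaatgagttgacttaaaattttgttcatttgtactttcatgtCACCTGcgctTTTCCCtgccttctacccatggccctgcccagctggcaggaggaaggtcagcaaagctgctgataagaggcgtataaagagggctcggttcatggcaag
Prss1 (chr6:41458680-41458929, plus strand): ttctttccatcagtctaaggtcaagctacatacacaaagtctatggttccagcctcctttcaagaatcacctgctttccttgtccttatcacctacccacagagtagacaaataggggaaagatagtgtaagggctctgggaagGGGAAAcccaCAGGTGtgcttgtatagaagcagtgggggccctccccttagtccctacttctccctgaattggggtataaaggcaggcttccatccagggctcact

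Of the transcription factors, Nr5a2 and Bhlha15 spanned smaller folds between libraries than Cpa1 did. Ptf1a (chromosome 2, 19445663 to 19447501, plus strand) was at 4.60, 6.76 and 7.17 CPM in males on 44% fat, against 2.93, 1.84 and 3.79 CPM in males on 10% fat, and 2.88, 2.08, 2.14 and 4.69 CPM in females on 44% fat, against 1.11, 4.38, 1.31 and 0.741 CPM in females on 10% fat in NZO/HlLtJ. Ptf1a in CAST/EiJ was at 0.296, 8.32, 0.0309 and 0.926 CPM in males on 44% fat, against 0, 0.859 and 1.04 CPM in males on 10% fat, and 0.0981, 3.01, 0.513 and 1.35 CPM in females on 44% fat, against 2.03, 0.331, 2.15 and 23.0 CPM in females on 10% fat. Ptf1a in C57BL/6J was at 6.79, 0.802, 1.88 and 0.983 CPM in males on 44% fat, against 0.873, 4.36, 2.54 and 1.63 CPM in males on 10% fat, and 0.0798, 5.41, 1.65 and 6.49 CPM in females on 44% fat, against 1.25, 2.91, 8.88 and 19.8 CPM in females on 10% fat. The count of 0 in CAST/EiJ male 10% fat replicate 1 allows a level of up to 0.0318 CPM, from 3 counts and counting error only. Its highest and lowest libraries were those of the enzymes.

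Rbpjl, the acinar subunit of the complex (chromosome 2, 164403141 to 164415448, plus strand), was at 17.0, 20.1 and 32.2 CPM in males on 44% fat, against 13.7, 6.07 and 6.01 CPM in males on 10% fat, and 13.7, 7.62, 7.62 and 12.2 CPM in females on 44% fat, against 2.28, 8.98, 2.04 and 2.04 CPM in females on 10% fat in NZO/HlLtJ. Rbpjl in CAST/EiJ was at 0.520, 18.1, 0.0926 and 6.97 CPM in males on 44% fat, against 0.106, 2.14 and 4.36 CPM in males on 10% fat, and 1.02, 12.3, 0.885 and 3.32 CPM in females on 44% fat, against 11.3, 1.17, 7.92 and 71.6 CPM in females on 10% fat. Rbpjl in C57BL/6J was at 41.9, 3.91, 10.7 and 7.67 CPM in males on 44% fat, against 5.68, 20.1, 10.8 and 9.09 CPM in males on 10% fat, and 3.15, 17.3, 8.40 and 33.8 CPM in females on 44% fat, against 8.23, 9.40, 33.1 and 80.1 CPM in females on 10% fat. It spanned 136-fold over the libraries on CPM + 0.5, with levels from 0.0926 to 80.1 CPM, and was highest in C57BL/6J female 10% fat replicate 4.

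Nr5a2 (chromosome 1, 136842571 to 136960448, minus strand) was at 13.4, 15.4 and 22.1 CPM in males on 44% fat, against 6.11, 5.51 and 7.60 CPM in males on 10% fat, and 6.98, 3.03, 8.95 and 8.80 CPM in females on 44% fat, against 2.20, 7.16, 3.37 and 1.74 CPM in females on 10% fat in NZO/HlLtJ. Nr5a2 in CAST/EiJ was at 1.63, 7.83, 1.02 and 3.95 CPM in males on 44% fat, against 1.80, 1.87 and 2.48 CPM in males on 10% fat, and 2.28, 4.24, 1.65 and 2.29 CPM in females on 44% fat, against 4.95, 2.12, 3.80 and 20.9 CPM in females on 10% fat. Nr5a2 in C57BL/6J was at 11.3, 2.22, 2.45 and 2.10 CPM in males on 44% fat, against 2.62, 5.92, 4.11 and 2.52 CPM in males on 10% fat, and 2.53, 4.73, 2.43 and 5.83 CPM in females on 44% fat, against 3.06, 3.16, 8.28 and 15.7 CPM in females on 10% fat. Its span was 14.9-fold on CPM + 0.5, and the CAST/EiJ libraries with the lowest Cpa1 (28.9 and 53.9 CPM) still had 1.80 and 1.02 CPM of Nr5a2. Bhlha15 (chromosome 5, 144190286 to 144194441, plus strand) was at 129.9, 119 and 121 CPM in males on 44% fat, against 112, 102 and 94.9 CPM in males on 10% fat, and 115, 200.2, 144 and 131 CPM in females on 44% fat, against 138, 188, 51.7 and 119 CPM in females on 10% fat in NZO/HlLtJ. Bhlha15 in CAST/EiJ was at 25.8, 108, 28.7 and 81.5 CPM in males on 44% fat, against 39.5, 49.1 and 59.4 CPM in males on 10% fat, and 30.9, 56.3, 20.6 and 28.0 CPM in females on 44% fat, against 77.3, 19.8, 40.7 and 189 CPM in females on 10% fat. Bhlha15 in C57BL/6J was at 70.6, 52.9, 57.9 and 47.4 CPM in males on 44% fat, against 43.2, 57.1, 89.2 and 103 CPM in males on 10% fat, and 23.0, 78.2, 80.1 and 75.0 CPM in females on 44% fat, against 63.1, 66.3, 152 and 137 CPM in females on 10% fat. Its span was 9.91-fold on CPM + 0.5, against 1461-fold for Cpa1, and no library fell below 19.8 CPM.

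Gatm, which makes the precursor of creatine and is abundant in acinar cells (chromosome 2, 122594467 to 122611303, minus strand), varied about as little. Gatm was at 143, 161 and 173 CPM in males on 44% fat, against 96.2, 103 and 105 CPM in males on 10% fat, and 134, 101, 123 and 125 CPM in females on 44% fat, against 101, 133, 108 and 99.4 CPM in females on 10% fat in NZO/HlLtJ. Gatm in CAST/EiJ was at 35.5, 119, 34.6 and 46.7 CPM in males on 44% fat, against 26.4, 48.7 and 41.6 CPM in males on 10% fat, and 34.3, 85.1, 45.5 and 44.3 CPM in females on 44% fat, against 48.1, 23.9, 40.2 and 164 CPM in females on 10% fat. Gatm in C57BL/6J was at 116, 48.4, 52.0 and 39.6 CPM in males on 44% fat, against 64.9, 71.1, 60.8 and 59.4 CPM in males on 10% fat, and 58.4, 121, 69.6 and 132 CPM in females on 44% fat, against 85.3, 82.8, 125 and 199.96 CPM in females on 10% fat. Each NZO/HlLtJ library was at 96.2 CPM or more, whereas 12 of the 15 CAST/EiJ libraries were at 48.7 CPM or less, and its span was 8.21-fold on CPM + 0.5.

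Across the 45 libraries, on log2(CPM + 0.5), the enzymes rose with Cpa1 nearly in proportion, and the transcription factors had lower slopes. For Ptf1a and Rbpjl the lower slope depended in large part on the constant of 0.5, as given below. Each member was related to Cpa1, 32 relations in all, with permutation tests of 100000 resamples. The slope on Cpa1 was 1.02 ± 0.01 for Cpb1, carboxypeptidase B1 (SE, Pearson r = 0.998, Spearman rho = 0.994), 1.00 ± 0.01 for Prss2 (r = 0.998, rho = 0.993) and 0.98 ± 0.01 for Pnlip (r = 0.995, rho = 0.991). It was 1.09 ± 0.03 for Sycn, syncollin of the granule (r = 0.982, rho = 0.968), and 0.66 ± 0.04 for Amy1, the amylase gene first described in salivary gland (r = 0.933, rho = 0.923). The slope was 0.73 ± 0.05 for Rbpjl (r = 0.921, rho = 0.925), 0.59 ± 0.03 for Ptf1a (r = 0.931, rho = 0.970), 0.38 ± 0.04 for Nr5a2 (r = 0.811, rho = 0.915) and 0.31 ± 0.04 for Bhlha15 (r = 0.729, rho = 0.726). Gatm had a slope of 0.30 ± 0.04 (r = 0.783, rho = 0.823). Each of these relations had a permutation p of 1e-05, the smallest that the resamples can give, and a Benjamini-Hochberg adjusted p of 1.1e-05.

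The constant added before the logarithm weighs on genes near 0. With 0.05 in its place the slope was 0.89 for Ptf1a and 0.89 for Rbpjl, but 0.42 for Nr5a2 and 0.31 for Bhlha15. With no constant, Ptf1a counts were at medians of 0.0602% of Cpa1 counts in NZO/HlLtJ, 0.0651% in CAST/EiJ and 0.0602% in C57BL/6J. Without the 2 libraries farthest from the median of Cpa1, r was 0.962 for Ptf1a, 0.907 for Rbpjl, 0.845 for Nr5a2, 0.759 for Bhlha15 and 0.766 for Gatm. As deviations from the group means r was 0.925 for Ptf1a, 0.938 for Rbpjl, 0.805 for Nr5a2 and 0.766 for Bhlha15. Within the number series 76, 80 and 89 it was 0.945, 0.943 and 0.963 for Ptf1a, 0.784, 0.849 and 0.922 for Nr5a2 and 0.724, 0.779 and 0.753 for Bhlha15. Within strains the slopes differed. The slope of Nr5a2 was 0.99 in the 14 NZO/HlLtJ libraries, against 0.31 in the 15 CAST/EiJ and 0.39 in the 16 C57BL/6J libraries, and that of Rbpjl was 1.12, 0.70 and 0.66. For Bhlha15 r was 0.268 in NZO/HlLtJ (permutation test, adjusted p = 0.363), 0.736 in CAST/EiJ and 0.827 in C57BL/6J. Differences between these slopes were not tested. NZO/HlLtJ libraries covered a narrower range of Cpa1, from 1576 to 12719 CPM.

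**Figure D2:**
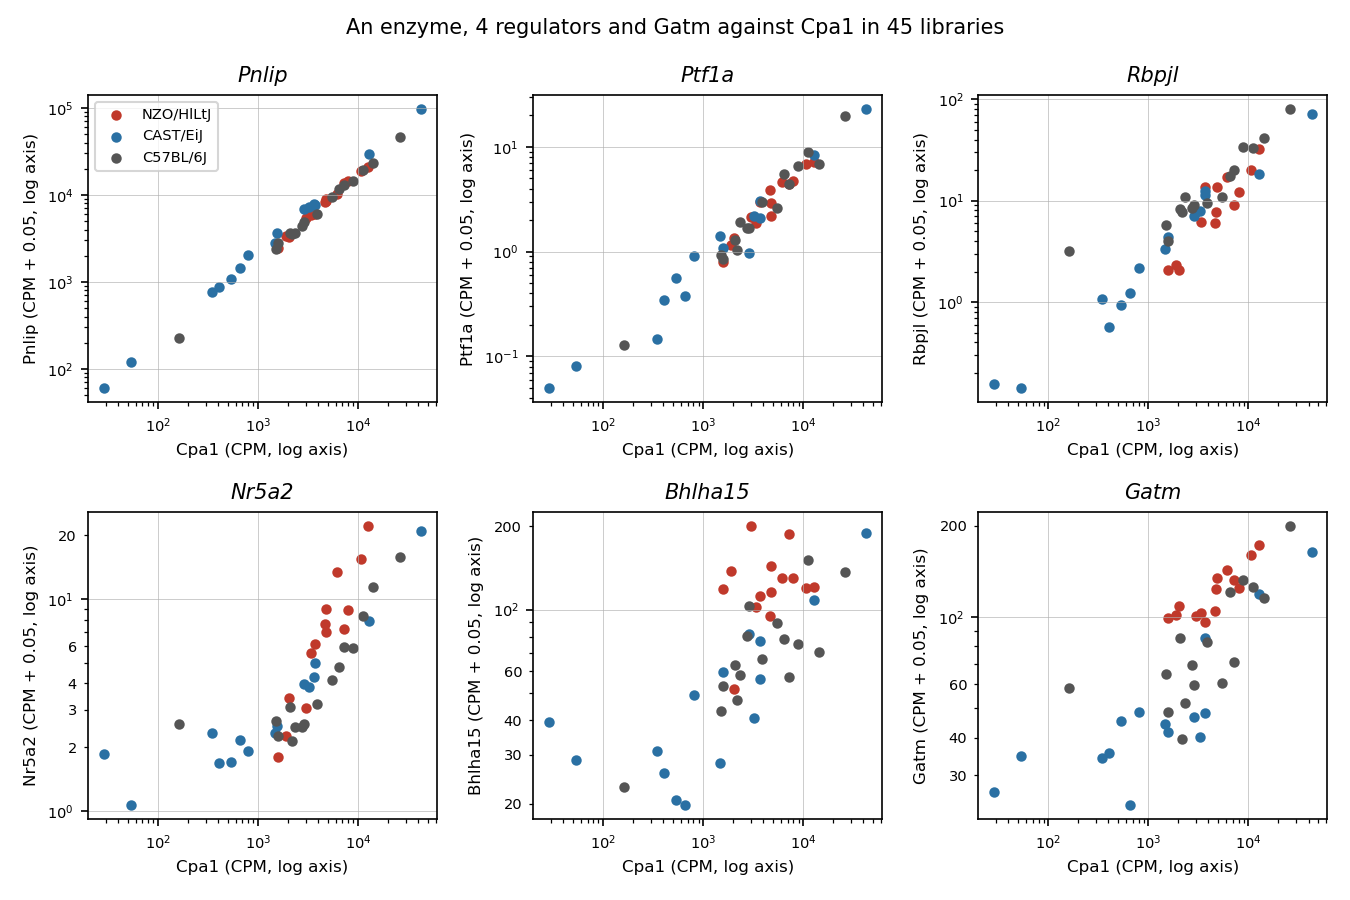
Levels of Pnlip, Ptf1a, Rbpjl, Nr5a2, Bhlha15 and Gatm (CPM + 0.05, log axis) against Cpa1 (CPM, log axis), with 1 point per library, coloured by strain, in 45 libraries. Pnlip follows Cpa1 closely (r = 0.995), whereas Bhlha15, Nr5a2 and Gatm flatten at low Cpa1.

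**Figure D3:**
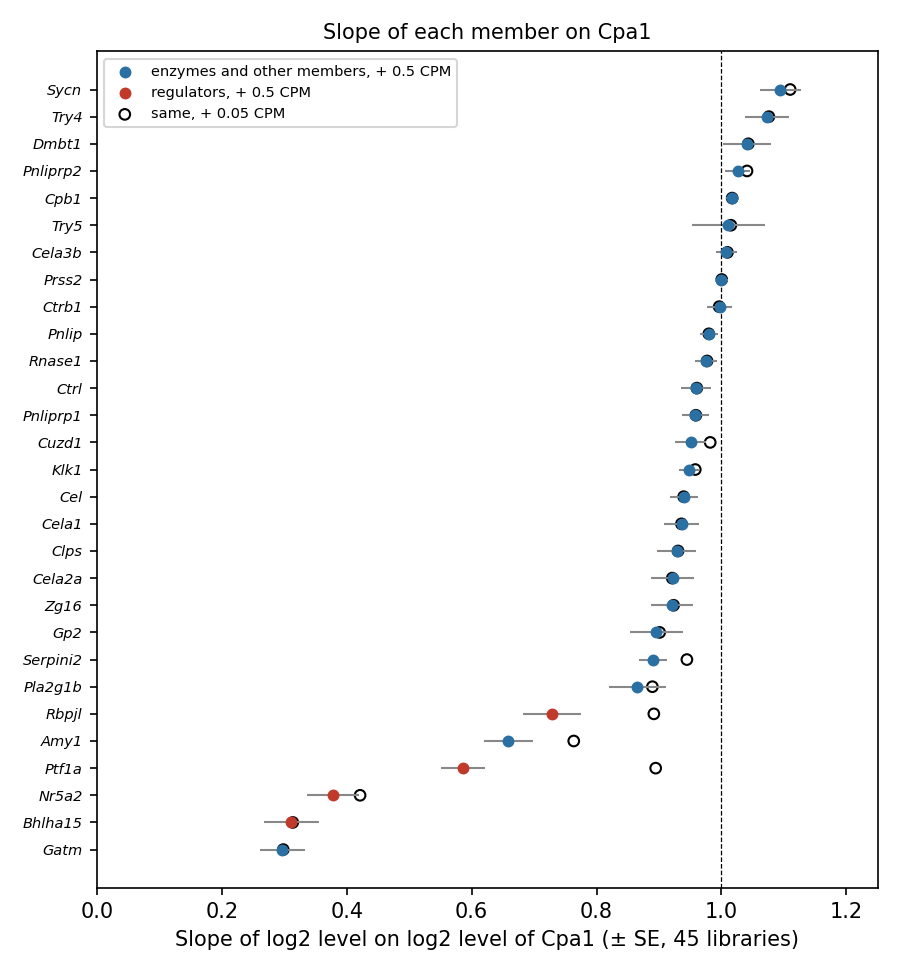
Slope of each of 29 members on Cpa1 across the 45 libraries on the log2 scale, with its SE, where filled points use CPM + 0.5 (transcription factors in red, the others in blue) and open points CPM + 0.05. The dashed line marks a slope of 1, and Bhlha15 (0.31), Nr5a2 (0.38) and Gatm (0.30) stand lowest.

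The ratio of each transcription factor to Cpa1 was compared between strains on the log2 scale, with strain labels permuted within sex and diet, in 12 tests. Rbpjl was low against Cpa1 in NZO/HlLtJ. Its log2 ratio averaged -8.99 in NZO/HlLtJ and -8.10 in C57BL/6J, a difference of -0.89 (SE 0.23, n = 14 and 16, two-sided permutation test, adjusted p = 0.00108). NZO/HlLtJ minus CAST/EiJ was -0.78 for Rbpjl (SE 0.29, adjusted p = 0.0227, permutation test) and -0.96 for Ptf1a (SE 0.38, adjusted p = 0.0320, permutation test). Without 5 of the libraries with transcripts of another strain, these 2 differences were -0.80 and -0.98 with adjusted p of 0.0501 and 0.0754, without all 6 they were the same with 0.04998 and 0.0760, and on 10% fat alone they were -1.07 and -0.78 with 0.0613 and 0.303 (permutation tests). For Rbpjl in NZO/HlLtJ minus C57BL/6J the difference was -0.98 without the 6 (adjusted p = 0.00108) and -0.86 on 10% fat alone (adjusted p = 0.0613, permutation tests). With a constant of 0.05 these 2 ratios, in which low counts of CAST/EiJ weigh, were -0.40 and -0.27 with adjusted p of 0.127 and 0.231 in the permutation test. The other 9 ratios gave adjusted p of 0.0813 or more.

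Diet in NZO/HlLtJ males: on 44% fat every one of the 33 genes was higher than on 10% fat in each of the 3 libraries against each of the 3, yet none passed the test. All 33 groups of libraries were apart, with a background of 20.0% of all genes higher without overlap. Log2 fold changes were above 0 for 33 of 33 (47.7% of all genes), with a median of 1.37, against -0.03 over all genes. None of the 33 had an adjusted p under 0.05 in edgeR's quasi-likelihood test, in which 29.3% of all genes were called, and 1 had an unadjusted p under 0.05. Cpa1 gave a log2 fold change of 1.34 (SE 1.40, edgeR adjusted p = 0.507) and Pnlip 1.30 (SE 1.42, adjusted p = 0.527). Without the 6 libraries that held transcripts of another strain, of which NZO/HlLtJ male 44% fat replicate 3 is 1, the median over the 33 was 1.09, Cpa1 gave 1.09 (SE 1.58, edgeR adjusted p = 0.714), and none of the 33 was called (10.2% of all genes). Medians by role were 1.59 for the 14 proteases, 1.42 for the 6 lipid-digesting genes, 1.26 for the 6 granule and secreted proteins and 1.26 for the 4 transcription factors. Of the transcription factors the values were 1.43 for Rbpjl (SE 1.26), 1.40 for Nr5a2 (SE 0.74), 1.11 for Ptf1a (SE 1.35) and 0.26 for Bhlha15 (SE 0.57), and Gatm gave 0.65 (SE 0.49).

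The model shared its spread over the 3 strains, and the spread of these genes was wide in CAST/EiJ and C57BL/6J. Fitted on NZO/HlLtJ libraries alone, 11 of the 33 were called in males (25.6% of all genes in that fit), all higher on 44% fat, among them Nr5a2 (log2 fold change 1.39), the colipase gene Clps (1.52), Ctrb1 (1.77), the phospholipase gene Pla2g1b (2.06) and the trypsinogen genes Try4 (2.16) and Try5 (2.56). Without NZO/HlLtJ male 44% fat replicate 3 that fit called 1 member in males, Gatm (8.45% of all genes). With all libraries DESeq2 called 1 (29.7% of the genes with an adjusted p) and limma on the deposited log2 values called 1 (30.7% of all genes). The number series of the sample codes was not balanced over the diets in NZO/HlLtJ: males on 44% fat were of series 76 and 80 and those on 10% fat of 76 and 89, and females on 44% fat were of 76 and 89 and those on 10% fat of 76 and 80. With the series as a factor, edgeR called 0 members in males (33.7% of all genes) and 1 in females (14.6%). Prss1 had the highest value in males, 4.73 (SE 1.98, edgeR adjusted p = 0.0693).

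Prss1, a trypsinogen (chromosome 6, 41458932 to 41463786, plus strand), was the 1 member called in NZO/HlLtJ females. Prss1 was at 1592, 2469 and 5459 CPM in males on 44% fat, against 4.02, 11.3 and 344 CPM in males on 10% fat, and 6.86, 131, 693 and 207 CPM in females on 44% fat, against 0.347, 0.325, 0.0983 and 0.0225 CPM in females on 10% fat in NZO/HlLtJ. On 44% fat every NZO/HlLtJ library of a sex was above every library of that sex on 10% fat, and the libraries of one diet differed among themselves by large factors. In females the log2 fold change was 10.35 (SE 2.30, edgeR adjusted p = 0.00227), with 15.8% of all genes called. Prss1 and Try5 were the members higher without overlap in females, beside 8.79% of all genes, and none was lower without overlap, beside 9.53%. Try5, a neighbouring trypsinogen gene (chromosome 6, 41311233 to 41316841, minus strand), was at 5406, 9214 and 15685 CPM in males on 44% fat, against 1068, 1081 and 2921 CPM in males on 10% fat, and 1163, 1881, 3905 and 3831 CPM in females on 44% fat, against 323, 1055, 282 and 223 CPM in females on 10% fat in NZO/HlLtJ. Its log2 fold change in females was 2.52 (SE 1.29, edgeR adjusted p = 0.184). All 33 members had a log2 fold change above 0 in NZO/HlLtJ females (49.2% of all genes), with a median of 0.87. Cpa1 gave 0.70 (SE 1.19, edgeR adjusted p = 0.739), and ranged from 0.40, without NZO/HlLtJ female 44% fat replicate 4, to 1.49, without NZO/HlLtJ female 10% fat replicate 2, when 1 library was left out.

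Against Cpa1 in the same libraries, Prss1 and its near relatives were also higher on 44% fat. Prss1 stood at 23.2%, 25.9% and 42.9% of the Cpa1 counts in NZO/HlLtJ males on 44% fat, against 0.109% to 7.38% on 10% fat (median 0.337%). In females it was at 0.142% to 14.5% on 44% fat (median 3.47%), against 0.00143% to 0.0182% on 10% fat (median 0.00468%). The transcripts of Prss1 are 97.8% identical to those of Gm5771 and 96.1% identical to those of Prss3 over the aligned bases, so the share of reads given to each is uncertain. Prss3 was at a median of 46.7% of the Cpa1 counts in NZO/HlLtJ males on 44% fat, against 2.12% on 10% fat, and at 9.79% in females on 44% fat, against 0.246% on 10% fat. Gm5771 was at medians of 43.1% against 0.963% in males and 7.31% against 0.0245% in females. Spink1, an inhibitor of trypsin, was at 5.08% against 1.67% in males and 2.24% against 0.997% in females. Both Prss3 and Gm5771 were called higher on 44% fat in males and in females by edgeR (Prss3 in males not without the 6 libraries), as given with the other acinar genes below.

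Summed markers of duct cells, fibroblasts and macrophages were also higher on 44% fat in the same NZO/HlLtJ libraries. Sums of the endocrine genes are given beside them. The summed level of 8 duct genes was 1066, 930.2 and 1639.6 CPM in males on 44% fat, against 366, 457 and 692 CPM on 10% fat, and 4 fibroblast genes were at 1288, 1125 and 2379 CPM, against 179, 369.5 and 856 CPM. The 5 macrophage genes were at 263, 275 and 422 CPM in males on 44% fat, against 55.8, 87.8 and 171 CPM on 10% fat. In females the duct sums were 418, 446, 733 and 544 CPM on 44% fat, against 270.3, 317, 358 and 289 CPM on 10% fat, the fibroblast sums were 373, 384, 694 and 601 CPM against 315, 254, 265 and 197 CPM, and the macrophage sums were 113, 117, 121 and 139.95 CPM against 40.7, 42.0, 42.9 and 44.0 CPM. None of these 17 genes was at 0 in any library. Each sum is led by its most abundant genes. Among the duct genes, Krt7 (median 146 CPM over the 45 libraries) and Spp1 (median 120 CPM) were highest. Spp1 reached 1219 CPM, a level that of the duct sums only that of 1639.6 CPM could hold. The duct genes were not compared singly here. The summed beta cell genes were at 103665, 112933 and 55150 CPM in males on 44% fat, against 138650, 156002 and 187393 CPM on 10% fat. In females they were at 130257, 176591, 160124 and 184140 CPM on 44% fat, against 118349, 105335, 113398 and 138496 CPM on 10% fat. The 4 alpha cell genes summed to 11844 to 17995 CPM in males on 44% fat, against 6962 to 14015 CPM on 10% fat, and in females to 14004.5 to 15634 CPM, against 17723 to 21666 CPM. The 3 delta cell genes summed to 1186 to 1527 CPM in males on 44% fat, against 1095 to 1508 CPM on 10% fat, and in females to 1235 to 1691 CPM, against 2321 to 2650 CPM. The part of these cell types in the acinar values was not tested.

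In C57BL/6J the diet moved no member past the test in either sex. In males 0 of 33 were called (edgeR, 0.00492% of all genes), 3 had an unadjusted p under 0.05, and 31 had a log2 fold change above 0 (51.5% of all genes), with a median of 0.30. DESeq2 called 2 (0.198% of the genes with an adjusted p). None was called without the 6 libraries, and the median was then 0.60. Cpa1 gave 0.26 in males, -1.07 without C57BL/6J male 44% fat replicate 1 and -0.13 with limma on the deposited log2 values, so its sign was not settled. Cela3a gave 8.14 (SE 2.26, edgeR adjusted p = 0.417) and Prss1 6.36 (SE 2.16, edgeR adjusted p = 0.819), both set by replicate 2 on 44% fat, 1 of the libraries with transcripts of another strain. In females 0 of 33 were called and none had an unadjusted p under 0.05. No gene of all 20306 was called (0%), 542 had an unadjusted p under 0.05, and DESeq2 called 6 genes. There 1 of 33 had a log2 fold change above 0 (53.6% of all genes), with a median of -1.21, or -1.43 without the 6 libraries. No member was without overlap between the diets, beside 1.61% of genes higher and 1.67% lower in males and 1.09% higher and 1.32% lower in females.

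In CAST/EiJ the 2 sexes lay on opposite sides of 0, with no member called in either. In males 33 of 33 had a log2 fold change above 0 (46.1% of all genes), with a median of 2.05. None was called, nor was any gene (0%), while 521 genes had an unadjusted p under 0.05, and DESeq2 called 4 genes and limma 2. Cpa1 gave 2.33 (SE 1.39) and ranged from 0.47, without CAST/EiJ male 44% fat replicate 2, to 3.28 when 1 library was left out. In females 0 of 33 were above 0 (53.5% of all genes), with a median of -2.86, and 27 had an unadjusted p under 0.05 (9.82% of all genes) but none an adjusted one (0.231%). Cpa1 gave -3.07 in females (SE 1.29, edgeR adjusted p = 0.410) and ranged from -4.01 to -0.76 when 1 library was left out. The value nearest to 0 was that without CAST/EiJ female 10% fat replicate 4. Without the 6 libraries, which leaves CAST/EiJ females on 44% fat with replicate 3 alone, Cpa1 gave -4.54 (SE 2.71, edgeR adjusted p = 0.793), the median was -4.41, and 1 of the 33 had an unadjusted p under 0.05. No member was without overlap between the diets, beside 1.31% of genes higher and 1.95% lower in males and 1.79% and 1.55% in females. The difference between the sexes in CAST/EiJ was not tested.

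Between strains most enzymes did not differ past the test, and a few differed by orders of magnitude. On 10% fat, NZO/HlLtJ minus C57BL/6J, 2 of the 33 were called (edgeR, 42.1% of all genes), 5 had a log2 difference above 0 (48.8% of all genes), and the median over the 33 was -0.67, with Cpa1 at -0.95 (SE 0.89). With 1 library left out Cpa1 ranged from -1.34, without NZO/HlLtJ female 10% fat replicate 2, to -0.50, without C57BL/6J female 10% fat replicate 4. CAST/EiJ minus C57BL/6J called 4 (46.9% of all genes) with 7 above 0 (51.7%) and a median of -0.68. NZO/HlLtJ minus CAST/EiJ called 3 (53.5% of all genes) with 14 above 0 (48.7%) and a median of -0.05. On 44% fat, NZO/HlLtJ minus C57BL/6J called 6 (66.4% of all genes) with 31 above 0 (47.0%) and a median of 0.83. CAST/EiJ minus C57BL/6J on 44% fat called 3 (49.2% of all genes) with 7 above 0 (48.9%) and a median of -0.52. NZO/HlLtJ minus CAST/EiJ on 44% fat called 9 (69.9% of all genes) with 32 above 0 (49.8%) and a median of 1.32. In each of these 6 comparisons, with all libraries, the share of the 33 genes that was called was under that of all genes. The comparisons share libraries. Without CAST/EiJ female 10% fat replicate 4, CAST/EiJ minus C57BL/6J on 10% fat called 12 members (46.4% of all genes in that fit) and NZO/HlLtJ minus CAST/EiJ called 5 (54.1%). Without CAST/EiJ male 44% fat replicate 2, CAST/EiJ minus C57BL/6J on 44% fat called 8 (47.4% of all genes in that fit) and NZO/HlLtJ minus CAST/EiJ called 23, which is 69.7% of the 33, beside 69.3% of all genes. On 44% fat, NZO/HlLtJ minus CAST/EiJ called 16 without CAST/EiJ female 44% fat replicate 2 (68.9% of all genes), and 4 without the 6 libraries that held transcripts of another strain (55.5%). NZO/HlLtJ minus C57BL/6J on 44% fat called 3 (58.4%) and CAST/EiJ minus C57BL/6J called 3 (39.4%) without the 6, and the medians on 44% fat were 0.79 for NZO/HlLtJ minus C57BL/6J, -1.22 for CAST/EiJ minus C57BL/6J and 1.89 for NZO/HlLtJ minus CAST/EiJ.

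Ctrc, chymotrypsin C, which also degrades trypsinogen (chromosome 4, 141814962 to 141846359, minus strand), was near the bottom of the enzyme range in C57BL/6J. Ctrc was at 1615, 2783 and 3692 CPM in males on 44% fat, against 807, 733 and 1045 CPM in males on 10% fat, and 1325, 668, 1086 and 1708 CPM in females on 44% fat, against 385, 1594, 408 and 322 CPM in females on 10% fat in NZO/HlLtJ. Ctrc in CAST/EiJ was at 156, 5018, 18.9 and 1076 CPM in males on 44% fat, against 10.0, 338 and 596 CPM in males on 10% fat, and 132, 1413, 207 and 527 CPM in females on 44% fat, against 1345, 236, 1315 and 15194 CPM in females on 10% fat. Ctrc in C57BL/6J was at 34.9, 223, 6.60 and 6.33 CPM in males on 44% fat, against 4.12, 14.8, 11.1 and 8.17 CPM in males on 10% fat, and 2.47, 13.9, 7.34 and 21.9 CPM in females on 44% fat, against 7.02, 9.25, 22.8 and 69.1 CPM in females on 10% fat. Every NZO/HlLtJ library was above every C57BL/6J library. NZO/HlLtJ minus C57BL/6J was 5.57 on 10% fat (log2, SE 1.04, edgeR adjusted p = 5.65e-05) and 6.01 on 44% fat (SE 1.07, adjusted p = 1.01e-05). CAST/EiJ minus C57BL/6J was 6.21 (SE 1.08, edgeR adjusted p = 1.12e-05) and 5.09 (SE 1.01, adjusted p = 7.50e-05). Without C57BL/6J male 44% fat replicate 2 the differences on 44% fat were 7.06 for NZO/HlLtJ minus C57BL/6J and 6.13 for CAST/EiJ minus C57BL/6J, and without the 6 libraries 6.99 and 5.48, all of them called. Against Cpa1, Ctrc counts were at 20.2% to 29.0% in NZO/HlLtJ and 34.7% to 42.1% in CAST/EiJ, against 0.204% to 0.339% in 14 C57BL/6J libraries. The other C57BL/6J libraries were male 44% fat replicate 2 at 14.1% and female 44% fat replicate 1 at 1.52%. Ctrc and Cela2a share 305 exon bases, of 1428 and 1723, so reads of that stretch are uncertain.

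Cela3a, an elastase (chromosome 4, 137401554 to 137409791, minus strand), was high in CAST/EiJ and almost absent from the other strains. Cela3a was at 1.26, 0.714 and 3.15 CPM in males on 44% fat, against 0.601, 0.618 and 0.177 CPM in males on 10% fat, and 2.23, 0.0800, 0.142 and 0.831 CPM in females on 44% fat, against 0.161, 0.436, 0.147 and 0.0674 CPM in females on 10% fat in NZO/HlLtJ. Cela3a in CAST/EiJ was at 35.4, 1205, 4.98 and 243 CPM in males on 44% fat, against 3.19, 125 and 212 CPM in males on 10% fat, and 31.7, 313, 43.3 and 174 CPM in females on 44% fat, against 331, 61.7, 341 and 3877 CPM in females on 10% fat. Cela3a in C57BL/6J was at 0.248, 49.0, 0.0527 and 0.0355 CPM in males on 44% fat, against 0.0466, 0.00964, 0.0343 and 0.0753 CPM in males on 10% fat, and 0.222, 0.170, 0.212 and 0.342 CPM in females on 44% fat, against 0.0783, 0.177, 0.266 and 1.09 CPM in females on 10% fat. Every CAST/EiJ library was above every NZO/HlLtJ library, and only C57BL/6J male 44% fat replicate 2 reached the CAST/EiJ range. CAST/EiJ minus C57BL/6J was 11.45 on 10% fat (SE 1.58, edgeR adjusted p = 2.33e-07) and 7.06 on 44% fat (SE 1.26, adjusted p = 1.72e-05). Without C57BL/6J male 44% fat replicate 2 the difference on 44% fat was 10.51 (SE 1.37, edgeR adjusted p = 9.03e-08), and without the 6 libraries it was 9.63 (SE 1.45, adjusted p = 4.55e-06). The difference NZO/HlLtJ minus CAST/EiJ was -10.16 (SE 1.61, edgeR adjusted p = 2.47e-06) and -7.57 (SE 1.40, adjusted p = 1.60e-05), the second of which was -7.10 without the 6 libraries (SE 1.41, adjusted p = 0.000121). As a share of Cpa1 counts, Cela3a was at 0.00265% to 0.0463% in NZO/HlLtJ and 8.12% to 15.6% in CAST/EiJ. It was at 3.09% in C57BL/6J male 44% fat replicate 2, at 0.136% in C57BL/6J female 44% fat replicate 1 and at a median of 0.00286% over C57BL/6J.

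Its neighbour Cela3b (chromosome 4, 137420999 to 137430540, minus strand) followed Cpa1 in all strains (slope 1.01, r = 0.994, permutation p = 1e-05). The 2 genes are 94.7% identical in their transcripts, and the sources used here do not give how reads were divided between them or between strain alleles. Their promoters in the reference strain are shown with each CACCTG in capitals, because the pair of neighbours is alike in sequence and differs in level between strains. Promoter sequence of CAST/EiJ was not used here.
Cela3a (chr4:137409792-137410041, minus strand): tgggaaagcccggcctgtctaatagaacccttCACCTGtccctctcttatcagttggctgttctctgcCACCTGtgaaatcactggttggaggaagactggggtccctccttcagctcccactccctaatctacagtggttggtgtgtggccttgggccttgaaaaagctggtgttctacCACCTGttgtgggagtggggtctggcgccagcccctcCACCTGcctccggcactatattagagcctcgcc
Cela3b (chr4:137430521-137430770, minus strand): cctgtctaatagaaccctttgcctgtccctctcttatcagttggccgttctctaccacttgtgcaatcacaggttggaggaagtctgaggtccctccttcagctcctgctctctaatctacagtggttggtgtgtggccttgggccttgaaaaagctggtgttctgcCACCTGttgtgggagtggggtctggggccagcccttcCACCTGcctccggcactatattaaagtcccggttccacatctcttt
Cela3a holds 4 copies of CACCTG and Cela3b holds 2.

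Prss1 also differed between strains. Prss1 in CAST/EiJ was at 4.56, 376, 1.66 and 39.7 CPM in males on 44% fat, against 0.148, 89.04 and 106 CPM in males on 10% fat, and 12.6, 250.2, 117 and 152 CPM in females on 44% fat, against 115, 21.9, 217 and 465 CPM in females on 10% fat. Prss1 in C57BL/6J was at 0.831, 35.2, 0.411 and 0.142 CPM in males on 44% fat, against 0.0233, 0.309, 0.0171 and 0.0471 CPM in males on 10% fat, and 2.40, 0.377, 0.116 and 0.448 CPM in females on 44% fat, against 0.0783, 0.148, 0.342 and 1.35 CPM in females on 10% fat. C57BL/6J libraries were at or near 0 apart from male 44% fat replicate 2. CAST/EiJ minus C57BL/6J was 9.0 on 10% fat (SE 1.58, edgeR adjusted p = 1.37e-05) and 5.39 on 44% fat (SE 1.27, adjusted p = 0.000599). NZO/HlLtJ minus C57BL/6J was 8.33 on 44% fat (SE 1.45, edgeR adjusted p = 7.65e-06) and 4.44 on 10% fat (SE 1.66, adjusted p = 0.0300). Without C57BL/6J male 44% fat replicate 2 the differences on 44% fat were 7.57 for CAST/EiJ minus C57BL/6J and 10.51 for NZO/HlLtJ minus C57BL/6J, and without the 6 libraries 7.38 and 10.09, all of them called. The call on 10% fat was lost with limma (2.37, adjusted p = 0.0789) and without NZO/HlLtJ male 10% fat replicate 3 (2.46, edgeR adjusted p = 0.245). Without NZO/HlLtJ female 10% fat replicate 1 or 2 its edgeR adjusted p was 0.0726 and 0.0917. NZO/HlLtJ minus CAST/EiJ was -4.56 on 10% fat (SE 1.39, edgeR adjusted p = 0.00620) and 2.94 on 44% fat (SE 1.13, adjusted p = 0.0218), the second of which was lost without the 6 libraries (2.71, adjusted p = 0.179). Since the level of Ctrc, Cela3a and Prss1 against Cpa1 differed between strains by large factors, no relation to Cpa1 over all libraries is given for them. Within CAST/EiJ r with Cpa1 was 0.9996 for Ctrc, 0.995 for Cela3a and 0.900 for Prss1, and within NZO/HlLtJ it was 0.994, 0.689 and 0.741.

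**Figure D4:**
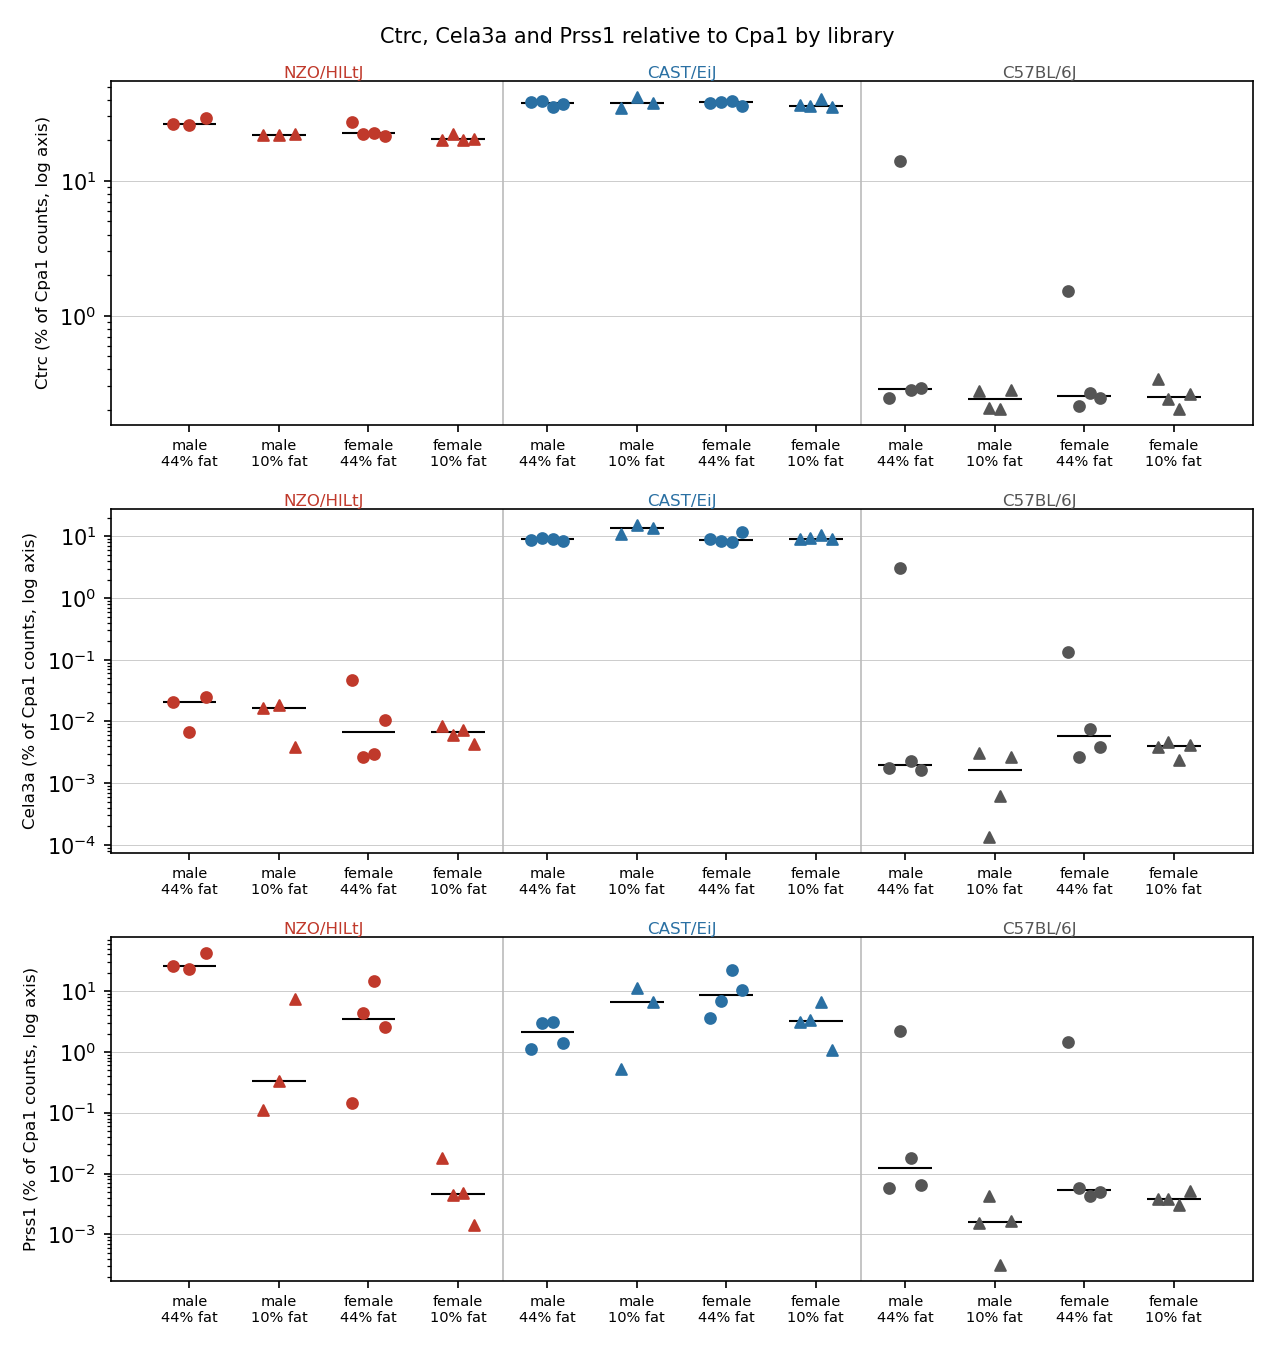
Counts of Ctrc, Cela3a and Prss1 as a percentage of Cpa1 counts (log axis) in each library of the 12 groups. Ctrc is at 20.2% or more in NZO/HlLtJ and CAST/EiJ, Cela3a is at 8.12% or more only in CAST/EiJ, Prss1 is apart by diet in NZO/HlLtJ, and C57BL/6J male 44% fat replicate 2 (14.1%, 3.09% and 2.22%) stands off its strain in each.

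C57BL/6J male 44% fat replicate 2 thus carried Ctrc, Cela3a and Amy2b at shares of Cpa1 above every other C57BL/6J library and below every CAST/EiJ library, while its Cpa1 was at 1585 CPM. In that library Amy2b, a pancreatic amylase, was at 145% of the Cpa1 counts, against 0.369% to 0.546% in 14 other C57BL/6J libraries and 10.2% in female 44% fat replicate 1. Amy2b was at 306% to 561% in CAST/EiJ, against 1.32% to 6.04% in NZO/HlLtJ. Cela3a was at 2.13% of the Amy2b counts in that library and at 1.92% to 2.99% in CAST/EiJ.

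On 44% fat NZO/HlLtJ islets also had more of some regulators and minor members than the other strains. NZO/HlLtJ minus C57BL/6J was 1.16 for Bhlha15 (SE 0.36, edgeR adjusted p = 0.00593), 1.38 for Nr5a2 (SE 0.47, adjusted p = 0.0107), 0.83 for Gatm (SE 0.31, adjusted p = 0.0195) and 2.14 for Try5 (SE 0.92, adjusted p = 0.0407). Without the 6 libraries Bhlha15 kept its call, while Nr5a2 gave 1.22 (edgeR adjusted p = 0.0657), Gatm 0.83 (adjusted p = 0.0548) and Try5 1.87 (adjusted p = 0.140). The call of Try5 was also lost when any 1 of 9 libraries was left out, with adjusted p of 0.0517 to 0.0849. NZO/HlLtJ minus CAST/EiJ was 1.57 for Bhlha15 (SE 0.37, edgeR adjusted p = 0.000309), 1.83 for Nr5a2 (SE 0.48, adjusted p = 0.00102) and 1.32 for Gatm (SE 0.31, adjusted p = 0.000380). These 3 genes kept their calls without the 6 libraries. On 10% fat Gatm was 1.03 higher in NZO/HlLtJ than in CAST/EiJ (SE 0.33, edgeR adjusted p = 0.00828) and gave -0.78 for CAST/EiJ minus C57BL/6J (SE 0.32, adjusted p = 0.0421). The second call was lost with DESeq2 (-0.78, adjusted p = 0.0531), without the 6 libraries (-0.77, edgeR adjusted p = 0.0584) and without any 1 of 10 libraries (edgeR adjusted p up to 0.120).

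Sycn (chromosome 7, 28540885 to 28542209, plus strand) and Try4, a trypsinogen gene (chromosome 6, 41302269 to 41305532, plus strand), were also called for NZO/HlLtJ minus CAST/EiJ on 44% fat. Sycn on 44% fat was at 1066, 2594 and 3147 CPM in NZO/HlLtJ males, against 21.01, 816, 3.53 and 170.4 CPM in CAST/EiJ males, and 456, 395, 855 and 1407 CPM in NZO/HlLtJ females, against 21.8, 309, 49.7 and 135 CPM in CAST/EiJ females. Try4 on 44% fat was at 5832, 9108 and 16092 CPM in NZO/HlLtJ males, against 157, 4793, 20.3 and 1270.2 CPM in CAST/EiJ males, and 3742, 2605, 5105 and 5909 CPM in NZO/HlLtJ females, against 169, 1823, 209 and 651 CPM in CAST/EiJ females. NZO/HlLtJ and CAST/EiJ overlapped for both, through the high CAST/EiJ male replicate 2. The log2 differences were 2.88 for Sycn (SE 0.95, edgeR adjusted p = 0.00816) and 2.67 for Try4 (SE 0.92, adjusted p = 0.0107). Try5 gave 2.48 (SE 0.93, edgeR adjusted p = 0.0184) and Dmbt1, a scavenger receptor protein of mucosal secretions, 2.39 (SE 0.91, adjusted p = 0.0197). Without the 6 libraries, which leaves CAST/EiJ females on 44% fat with 1 library, these 4 had edgeR adjusted p of 0.0865, 0.0828, 0.112 and 0.0697 at log2 differences of 3.41, 3.31, 3.0 and 3.40. That lone library was assumed to vary like the other groups.

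Males and females did not differ past the test in any member (0 of 33, with 8.41% of all genes called), and the median log2 difference, male minus female over strains and diets, was -0.35, with 4 of 33 above 0 (47.2% of all genes). Prss1 gave 2.04 (SE 0.82, edgeR adjusted p = 0.122). The diet effect in NZO/HlLtJ did not differ between males and females past the test in any member (0 of 33, with 9.26% of all genes called), at a median of 0.47 with 31 of 33 above 0 (49.9% of all genes), and Prss1 gave -5.62 (SE 2.63, edgeR adjusted p = 0.178). DESeq2 called 1 member in each of the 2 comparisons (11.6% and 15.5% of the genes with an adjusted p). Without the 6 libraries, in a fit that called fewer of all genes in both comparisons, the medians were -0.07 for male minus female and 0.22 for diet by sex.

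The enzymes' shared rise and fall with the amount of acinar RNA can be set aside by adding log2 Cpa1 as a covariate to the edgeR fit, a model added after the data were seen. It compares the other 32 members at equal Cpa1, with a slope on Cpa1 that each gene shares over all groups. At equal Cpa1 in NZO/HlLtJ males, 7 of 32 members were higher on 44% fat and none lower (27.4% of all genes called). These were Try5 (1.30, SE 0.39, edgeR adjusted p = 0.0128), Try4 (0.81, SE 0.20), Pla2g1b (0.76, SE 0.19), Sycn (0.50, SE 0.18), Cela3b (0.47, SE 0.12), Ctrb1 (0.42, SE 0.15) and Pnliprp2, a lipase-related gene (0.38, SE 0.13). Without NZO/HlLtJ male 44% fat replicate 3 the count was 2 (12.4% of all genes), and without the 6 libraries it was 1 (9.69%). In females 10 of 32 were higher and none lower (15.7% of all genes), among them Prss1 (9.92, SE 2.11, edgeR adjusted p = 0.00161), Try5 (1.88, SE 0.34, adjusted p = 0.000305), Try4 (0.89, SE 0.17), Pla2g1b (0.62, SE 0.17) and Cela3b (0.50, SE 0.10). Without NZO/HlLtJ female 44% fat replicate 3 the count was 6 (10.5% of all genes), and without the 6 libraries it was 8 (13.4%). With all libraries, Ctrb1, Cela3b, Try4, Try5, Pnliprp2 and Pla2g1b were called in both sexes. No transcription factor was called in either sex. No member was called in the C57BL/6J or CAST/EiJ diet comparisons at equal Cpa1 (0.00492% of all genes in C57BL/6J males, 0% in C57BL/6J females, 0% in CAST/EiJ males and 0.217% in CAST/EiJ females). Leaving out 1 library gave up to 2 calls in C57BL/6J males (up to 0.124% of all genes) and 1 in CAST/EiJ males (up to 0.0193%).

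Between strains at equal Cpa1, the share of the 32 members that was called was 59.4% to 81.2%. It was near that of all genes for NZO/HlLtJ minus C57BL/6J on 44% fat (68.8% against 65.7%). Each value is relative to Cpa1, so a strain difference in Cpa1 itself would shift all 32 members together, which was not tested. The median over the 32 was 0.41 on 10% fat and 0.29 on 44% fat for CAST/EiJ minus C57BL/6J. It was 0.24 and 0.30 for NZO/HlLtJ minus C57BL/6J, and -0.34 and -0.05 for NZO/HlLtJ minus CAST/EiJ. CAST/EiJ minus C57BL/6J on 10% fat called 19 of 32 higher and 1 lower (45.9% of all genes). Among them, Pla2g1b was 1.45 higher on the log2 scale (SE 0.13, edgeR adjusted p = 4.62e-12), the granule membrane glycoprotein gene Gp2 1.36 (SE 0.11), Clps 1.22 (SE 0.07), Amy1 1.19 (SE 0.15) and Zg16 1.13 (SE 0.09), while Dmbt1 was lower (-0.69, SE 0.16). On 44% fat 18 were higher and 3 lower (48.3% of all genes), with Gp2 at 1.35, Pla2g1b at 1.28 and Zg16 at 1.02. NZO/HlLtJ minus C57BL/6J called 14 higher and 5 lower on 10% fat (43.1% of all genes) and 18 higher and 4 lower on 44% fat (65.7%). Cuzd1, a zymogen granule protein gene, was 0.68 and 0.64 higher, and Cela2a gave -0.52 and -0.49. Between NZO/HlLtJ and CAST/EiJ, 5 were called higher and 16 lower in NZO/HlLtJ on 10% fat (53.2% of all genes) and 12 higher and 14 lower on 44% fat (66.1%), with Sycn at 0.63 and 1.26, Dmbt1 at 1.14 and 1.07, Cela2a at -1.34 and -1.12 and Gp2 at -0.88 and -1.20. In that comparison on 44% fat, 7 were higher and 13 lower without the 6 libraries, beside 51% of all genes. Male minus female called 3 higher and none lower (10.3% of all genes): Try5 (0.65, SE 0.14), Pnliprp2 (0.24, SE 0.05) and Cela3b (0.23, SE 0.04). Try5 gave 0.58 without the 6 libraries (edgeR adjusted p = 0.0629). The diet by sex difference in NZO/HlLtJ called none (9.84% of all genes).

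Among the transcription factors at equal Cpa1, Rbpjl was lower in NZO/HlLtJ than in C57BL/6J, at -0.97 on 10% fat (SE 0.27, edgeR adjusted p = 0.00338) and -0.76 on 44% fat (SE 0.27, adjusted p = 0.0154). It was also lower in CAST/EiJ than in C57BL/6J on 44% fat (-1.13, SE 0.26, edgeR adjusted p = 0.000522), with -1.74 without the 6 libraries. Bhlha15 was higher in NZO/HlLtJ than in C57BL/6J, by 0.58 on 10% fat (SE 0.24, edgeR adjusted p = 0.0447) and 0.88 on 44% fat (SE 0.24, adjusted p = 0.00195). Nr5a2 was higher on 44% fat, by 0.99 for NZO/HlLtJ minus C57BL/6J (SE 0.27, edgeR adjusted p = 0.00204) and 0.96 for NZO/HlLtJ minus CAST/EiJ (SE 0.30, adjusted p = 0.00498). Without the 6 libraries the call of Bhlha15 on 10% fat was lost (0.60, edgeR adjusted p = 0.0517), as was that of Nr5a2 for NZO/HlLtJ minus CAST/EiJ (1.0, adjusted p = 0.0592). Ptf1a was called in none of the 14 comparisons at equal Cpa1. The fit used the same slope on Cpa1 in all strains, whereas the slopes of Nr5a2 and Rbpjl were steeper within NZO/HlLtJ, as given above. A difference in slope can enter these strain differences, and its part in them was not tested.

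**Figure D5:**
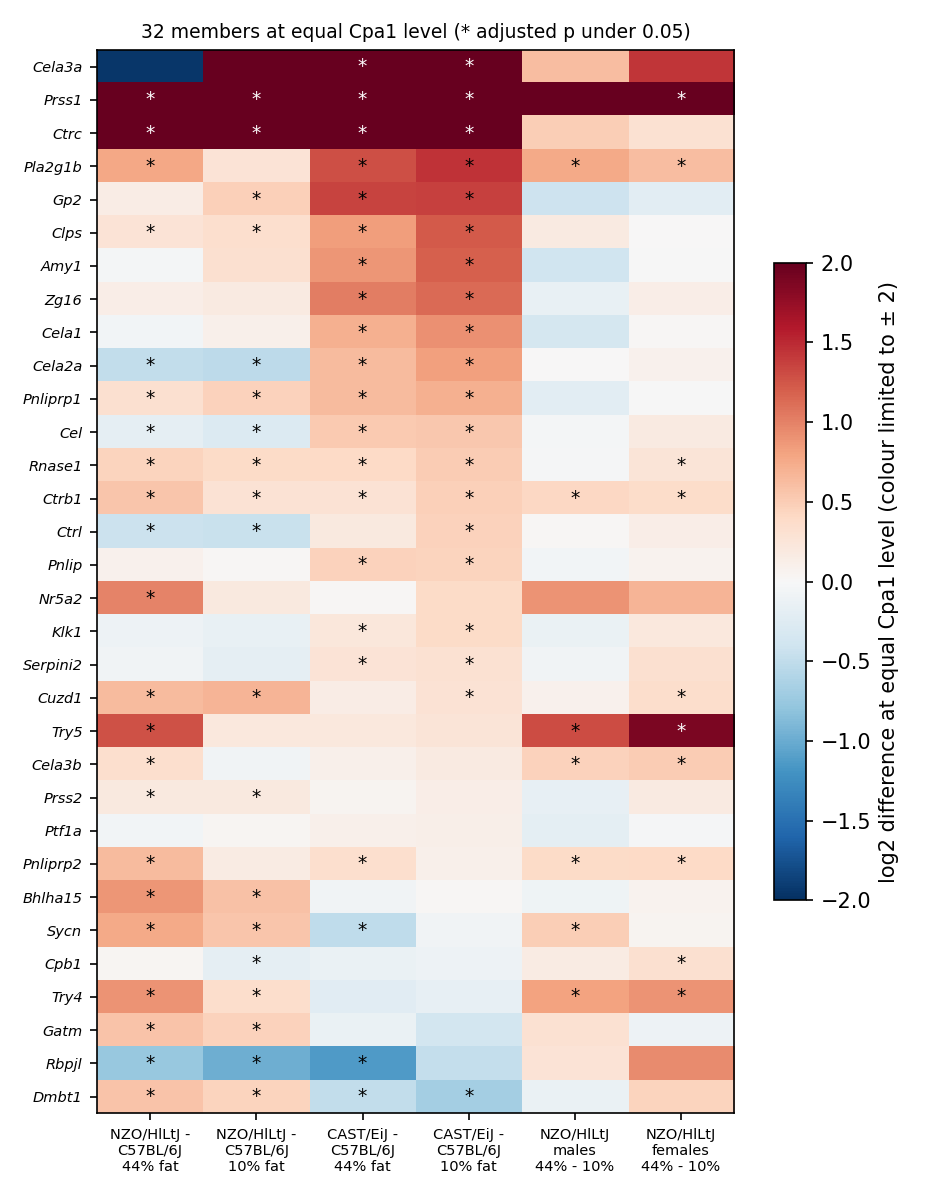
Log2 differences of 32 members at equal Cpa1 in 6 comparisons, coloured from lower to higher and limited to 2 on the colour scale, with asterisks where the edgeR adjusted p is under 0.05. The column of NZO/HlLtJ minus C57BL/6J on 44% fat holds 18 higher and 4 lower called members, beside 65.7% of all genes called, and the NZO/HlLtJ diet columns hold 7 in males and 10 in females.

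Of a list of 24 other acinar genes, 23 were tested, and diet calls were found only in NZO/HlLtJ. In NZO/HlLtJ males 5 of 23 were called higher on 44% fat by edgeR and none lower (29.3% of all genes called, median 1.20). These were Prss3, Gm5771, Rab27b, Dpep1 and Gata6. Gata6 ranged only from 8.03 to 19.8 CPM over the 45 libraries. In NZO/HlLtJ females 3 were higher, Prss3, Gm5771 and Rab3d, a GTPase of zymogen granules (15.8% of all genes called, median 0.82). None was called in C57BL/6J (medians 0.24 in males and -1.07 in females) or CAST/EiJ (medians 1.71 in males and -2.45 in females). Few genes of any kind were called there, from 0% to 0.231% of all genes. On 44% fat NZO/HlLtJ minus C57BL/6J called 9 higher and 1 lower (66.4% of all genes). CAST/EiJ minus C57BL/6J called 2 higher and 4 lower (49.2%), and NZO/HlLtJ minus CAST/EiJ 10 higher and 3 lower (69.9%). On 10% fat the same comparisons called 3 higher and 2 lower (42.1%), 2 higher and 3 lower (46.9%), and 3 higher and 4 lower (53.5%). Male minus female called 1 higher (Dpep1, 8.41% of all genes), and the diet by sex difference called 1 higher and 1 lower (Gata6 and Rab3d, 9.26%). The background shares are those given above for each comparison. The call of Prss3 in NZO/HlLtJ males was lost without the 6 libraries. Some calls of these genes were also lost there for male minus female, for diet by sex and for the strain comparisons on 44% fat. In each of these comparisons fewer of all genes were called as well.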

How the data were processed

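The authors deposited a matrix of estimated counts for 22904 genes in 45 libraries, of which 23.6% of the values are not whole. Variance-stabilised log2 values of the same genes were deposited as well. GRCm38 and DESeq2 are named in the submitters' processing notes, without their roles. The sources used here do not give the aligner, the counting program, strand use or the handling of strain variants, which bear on near-identical genes. Of the 33 members, 10 have some value that is not whole. Symbols and positions were read from the deposited tables, where 41 symbols appear more than once, none of them a member.

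Estimated counts were rounded and tested with edgeR 4.0.16 (R 4.3.3, quasi-likelihood F test), with TMM factors (0.486 to 1.178) and the default low-count filter (20306 genes). One model of 12 groups held all libraries, 14 comparisons were made, and Benjamini-Hochberg adjustment ran over all genes within each, at an adjusted p under 0.05. The SE is the size of the log2 fold change over the root of F. Strain and sex comparisons are means over the groups involved with equal weight. The library total was 57.2 to 110 M, with a median of 84.4 M. Counting error is thus small for the abundant enzymes and large for Ptf1a, Cela3a and Prss1 in libraries where they are near 0. The fitting code was tested on simulated data.

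Relations to Cpa1 used Pearson's r and Spearman's rho on log2(CPM + 0.5) with 100000 permutations. Ratios between strains were permuted within sex and diet, over 12 tests. Alternatives were library totals, RLE factors, other filters, DESeq2 1.42.0, limma 3.58.1 on the deposited log2 values, the number series of the sample codes as a factor, each strain alone, leaving out each library in turn, and leaving out 5 libraries with transcripts of another strain. The fits with Cpa1 or Cpb1 as a covariate, the relations within strains, the fits without 6 such libraries and the fit of NZO/HlLtJ alone without its mixed library were added after the data were seen. Python 3.11.15, numpy 2.4.6, pandas 2.3.3, scipy 1.17.1, matplotlib 3.10.9 and Biopython 1.88 were used for the rest.

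The members and lists were chosen with earlier results of these data known. Values in every library are given for Cpa1, Cel, Pnlip, Prss2, Cela1, Zg16 and the 4 transcription factors, and for members called in a comparison, up to the 6 of smallest adjusted p. The others are given by counts and ranges. Genes that are no members come from fixed marker lists. Of the adipocyte genes only Cidec (at 0 in 15 libraries) and of the salivary genes only Amy1 were analysed here, and gastric genes were not. The result of 1 other marker list is not reported here. Replicates are numbered in the order of the samples and pair nothing.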

Additional observations from a re-analysis of the deposited data

Results flagged for a closer look

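In groups of 4 libraries, the highest or lowest library was set against the others with Dixon's test for 15 measures in 9 groups, 135 tests in all, of which 40 stood apart. For normally distributed values chance flags about 1 in 20 groups. The levels were tested untransformed and spread over wide folds, so chance can flag high libraries more often than that. The measures move together, so the flags are not independent. No explanation was tested for any of them.

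A trio of libraries stood above their groups in the share of counts and in the abundant enzymes. CAST/EiJ female 10% fat replicate 4 had a share of 33.2%, with 42956 CPM of Cpa1, 71983 of Cel, 97383 of Pnlip, 24874 of Prss2, 70939 of Cela1 and 13582 of Zg16. It also stood above its group for Ptf1a (23.0 CPM), Rbpjl (71.6 CPM), Nr5a2 (20.9 CPM), Ctrc (15194 CPM) and Cela3a (3877 CPM). NZO/HlLtJ female 10% fat replicate 2 had a share of 9.23%, with 7207 CPM of Cpa1, 7316 of Cel, 13543 of Pnlip, 4895 of Prss2, 7631 of Cela1 and 1394 of Zg16, and with Ptf1a at 4.38 CPM, Rbpjl at 8.98 CPM and Ctrc at 1594 CPM. C57BL/6J male 44% fat replicate 1 had a share of 15.6%, with 14263 CPM of Cpa1, 17531 of Cel, 23114 of Pnlip, 9791 of Prss2, 12169.5 of Cela1 and 2269 of Zg16, and with Nr5a2 at 11.3 CPM and Gatm at 116 CPM.

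CAST/EiJ male 44% fat replicate 2 stood above its group for Ptf1a (8.32 CPM), Prss1 (376 CPM) and Gatm (119 CPM). C57BL/6J male 44% fat replicate 2 stood above its group for Ctrc (223 CPM), Cela3a (49.0 CPM) and Prss1 (35.2 CPM). C57BL/6J female 44% fat replicate 1 was below its group for Bhlha15 (23.0 CPM) and above it for Prss1 (2.40 CPM). C57BL/6J male 10% fat replicate 2 was above its group for Prss1 at 0.309 CPM.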

How the results depend on the processing

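No called value changed its sign, while some values without a call did, such as Cpa1 for the diet in C57BL/6J males. Of the fitted values of single members, 2347 kept their side of the threshold when a setting changed, 28 lost a call and 15 gained one. With 1 library left out 2253 kept it, 23 lost a call and 17 gained one. Members called in NZO/HlLtJ males on 44% fat were 1 with DESeq2 (29.7%), 1 with limma (30.7%) and 11 with the strain fitted alone (25.6%). With it alone and without its mixed library 1 was called (8.45%), against 0 in the report. In NZO/HlLtJ females 2 were called with the strain alone, with that library (7.04%) or without it (8.6%). Shares in parentheses are of all genes with an adjusted p. DESeq2 called 2 members in C57BL/6J males (0.198%), 15 for NZO/HlLtJ minus CAST/EiJ on 44% fat (64.1%), 1 for male minus female (11.6%) and 1 for diet by sex (15.5%). Limma called 1 for NZO/HlLtJ minus C57BL/6J on 10% fat (43.2%), and 5 (53.8%) and 26 (70.6%) for NZO/HlLtJ minus CAST/EiJ on 10% and 44% fat, where 26 are 78.8% of the 33. Leaving out 5 mixed libraries gave 4 for the last of these, and leaving out 6 gave 4 there, 3 for NZO/HlLtJ minus C57BL/6J on 44% fat and 1 for NZO/HlLtJ males at equal Cpa1. The cause was not tested.

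With NZO/HlLtJ alone and without its mixed library, 1593 genes were called in males, 1620 in females and 1 for diet by sex. Genes called over all genes moved in NZO/HlLtJ males to 2692 with library totals, 2205 without 5 and 2154 without 6 libraries, and in NZO/HlLtJ females to 1205 with totals and 1303 with the strain alone. In C57BL/6J males they were 0 with totals or the strain alone, 2 with 1 CPM in 6 libraries and 45 with DESeq2, and in C57BL/6J females 6 with DESeq2. In CAST/EiJ males they were 4 with DESeq2, 2 with limma and 1 without 5 or 6 libraries, and in CAST/EiJ females 162 with DESeq2, 16 with limma, 0 with the strain alone and 1 without 5 or 6. NZO/HlLtJ minus C57BL/6J on 10% fat gave 5440 with totals. Male minus female gave 824 with totals, 513 without 5 and 459 without 6. Diet by sex gave 193 with totals, 2832 with the number series, 50 with the strain alone, 164 without 5 and 166 without 6. Of 12 regulator ratios, of which 3 were called in the report, 5 were called with Cpb1 as denominator, 1 with 0.05 as constant, 1 without 5 libraries and 0 on 10% fat alone. The mean share of NZO/HlLtJ males on 10% fat was 3.85% without the amylase, trypsin and elastase families.

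With 1 library left out, members called ranged from 0 to 1 in NZO/HlLtJ males. On 10% fat they ranged from 1 to 2 for NZO/HlLtJ minus C57BL/6J (7187 to 9221 genes called over all genes). They were 3 to 12 for CAST/EiJ minus C57BL/6J (8964 to 9418 genes) and 3 to 5 for NZO/HlLtJ minus CAST/EiJ (10126 to 11126 genes). On 44% fat they were 3 to 8 for CAST/EiJ minus C57BL/6J (9445 to 9873 genes) and 8 to 23 for NZO/HlLtJ minus CAST/EiJ (13823 to 14112 genes). At equal Cpa1 the members called ranged from 2 to 9 in NZO/HlLtJ males, 6 to 10 in NZO/HlLtJ females, 0 to 2 in C57BL/6J males, 0 to 1 in CAST/EiJ males and 0 to 1 for diet by sex. Shares of all genes for the lowest NZO/HlLtJ counts, and for C57BL/6J and CAST/EiJ males, are given with those fits above. They are not given for the highest NZO/HlLtJ counts or for diet by sex, so those counts cannot be set against all genes. Genes called ranged from 2673 (without NZO/HlLtJ male 44% fat replicate 3) to 6625 in NZO/HlLtJ males, 2111 (without female 10% fat replicate 3) to 3678 in NZO/HlLtJ females, 1 to 20 (without male 44% fat replicate 3) in C57BL/6J males, 0 to 3 in CAST/EiJ males, 32 to 388 (without female 10% fat replicate 2) in CAST/EiJ females, 1036 (without CAST/EiJ male 10% fat replicate 3) to 1977 for male minus female, and 269 (without NZO/HlLtJ male 44% fat replicate 3) to 2377 for diet by sex. No paired analysis was possible because the replicate numbers were given in the order of the samples and the labels give no pairing. Few libraries per group and the wide spread of acinar RNA limit what these tests can detect in the enzymes.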

Other observations

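Among the other acinar genes, a few differed between strains, beside large shares of all genes called in the same comparisons. These shares were 42.1% on 10% fat and 66.4% on 44% fat for NZO/HlLtJ minus C57BL/6J, and 46.9% and 49.2% for CAST/EiJ minus C57BL/6J. Rab3d ranged from 134 to 488 CPM and Foxp1 from 22.1 to 52.6 CPM over the 45 libraries, a far narrower span than that of Cpa1. Which cells they came from was not tested. Rab3d, a GTPase of zymogen granules, was higher in NZO/HlLtJ than in C57BL/6J by 0.74 on 10% fat (log2, SE 0.12, edgeR adjusted p = 8.2e-06) and by 1.02 on 44% fat (SE 0.13, adjusted p = 6.36e-09). In NZO/HlLtJ females it was 0.77 higher on 44% than on 10% fat (SE 0.17, edgeR adjusted p = 0.00206). Foxp1, a transcription factor found in many cell types, was lower in NZO/HlLtJ than in C57BL/6J on both diets, at -0.68 on 10% fat (SE 0.08, edgeR adjusted p = 3.7e-09) and -0.74 on 44% fat (SE 0.08, adjusted p = 2.42e-10). Cckar, the receptor of cholecystokinin, the hormone that stimulates acinar secretion, was higher in CAST/EiJ than in C57BL/6J by 1.79 on 10% fat (SE 0.54, edgeR adjusted p = 0.00659) and 2.65 on 44% fat (SE 0.54, adjusted p = 0.000117). The pancreatic amylase gene Amy2b was 8.89 higher in CAST/EiJ than in C57BL/6J on 10% fat (SE 1.31, edgeR adjusted p = 7.78e-07). The transcripts of Amy2b and Amy2a5 are 97.8% identical over the aligned bases, so the division of reads between the 2 genes is uncertain. These genes were not corrected for the Cpa1 level.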
